A study of Capra hircus with 40 samples.

Results

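Ovary and uterus of 2-month-old female Jining gray goats were compared by bulk RNA sequencing, with 5 libraries of each organ. These 10 libraries are all those labelled month 2 among 40, which cover the same 2 organs at day 1 and at months 2, 4 and 6 after birth. The goats came from one farm and one regime of rearing, and the labels record no treatment in either organ, so organ is the labelled difference between the groups. No pooling of animals is mentioned. The ovary and uterus libraries carry the same 5 individual numbers, but nothing in the labels says that a number is 1 goat in both organs, and the libraries were compared as unpaired samples. Libraries are named here by organ and individual number (ovary library 1, uterus library 1 and so on).

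The ovary houses oocytes, the egg cells, inside follicles whose granulosa cells feed the oocyte and convert androgen into estrogen, while theca cells around the follicle make that androgen from cholesterol. The uterus comes from the Müllerian duct of the embryo, whose fate along its length is set by HOX transcription factors, and it consists of a lining epithelium, a supporting stroma and a smooth muscle wall that respond to estrogen and progesterone. In young ruminants the endometrial glands form after birth, and follicles grow in waves before puberty.

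Library totals at month 2 lay between 43620432 and 60262536 counts, and no 2 libraries of an organ agreed within sampling noise. Levels are given in CPM, the count of a gene scaled by its library total, which compare one gene between libraries. They do not compare genes of different length. The first principal component of log2(CPM + 1) held 62.8% of the variance and separated the organs, from -77.1 to -39.7 for the ovary and from 58 to 67.1 for the uterus. Ovary library 2 lay nearest to the uterus at -39.7 and farthest out on the second component, which held 9.02%. Summed over 24 measured genes of cilia and oviduct epithelium, this library reached 707.8 CPM against 41.5 to 56.66 in the other ovary libraries, while the uterus ran from 40.03 to 332.5. Its summed oocyte genes were the lowest of the ovaries, at 76.74 CPM. Counts of list members called that move by over 1.5 times without this library are given both ways, while counts by fold size and of genes in one organ alone were made with all 10 libraries.

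Of 30049 genes in the table, 18331 had enough counts to be tested with edgeR's quasi-likelihood test. A call required both an adjusted p (Benjamini-Hochberg, over all genes tested) under 0.05 and a log2 fold change of 1 or more in either direction. By this rule 2101 genes were higher in the ovary, 11.5% of those tested, and 1686 were lower, 9.2%. Without ovary library 2 these counts were 2304 and 1894. Counts of list members called, given below, are to be read beside the shares of 11.5% and 9.2%. Across all genes tested the median log2 fold change was 0.0097. All 5 ovary libraries lay above all 5 uterus libraries for 12.7% of the genes and below them for 12% of them. Large differences leaned toward the ovary: 603 genes were at least 4 log2 units higher there and 226 were as much lower. At 8 log2 units the counts were 226 and 24. Both pairs of counts use fitted folds, which depend on the prior count for genes at 0 in one organ. Of such genes, 47 reached 1 CPM in each ovary library and 3 in each uterus library. RNA of bulk tissue cannot tell fewer cells of a type apart from less RNA per cell.

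**Figure D1:**
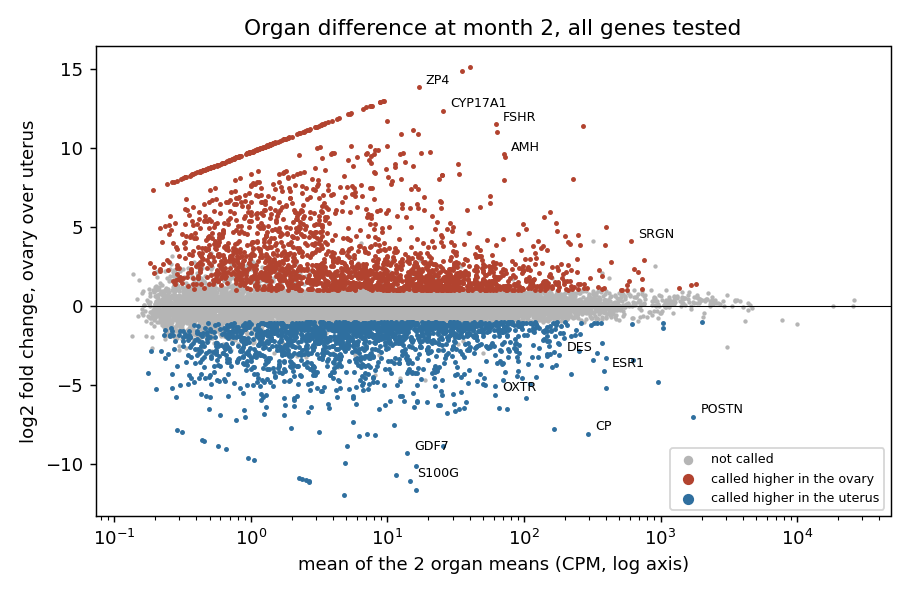
Log2 fold change of the ovary over the uterus at month 2 against the mean level (CPM, log axis), 1 point per gene tested, with genes called higher in the ovary in red, called higher in the uterus in blue and others in grey. The 2101 red points reach farther from 0 than the 1686 blue ones; points on the slanted upper line are genes at 0 in every uterus library, whose fitted fold depends on the prior count.

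Oocyte genes had the highest median of the 28 lists with at least 8 genes tested. All 18 oocyte genes tested, of 22 listed and 19 matched to the table, were called higher in the ovary, with a median log2 fold change of 6.69. Among them 5 had no count in any uterus library, and setting those at their lower bound left the median unchanged. ZP4, a glycoprotein of the egg coat, stood at 39.7, 9.89, 30.6, 70.4 and 18.5 CPM in ovary libraries 1 to 5 and at 0 in every uterus library. Against 3 counts over the uterus group this is at least 2858-fold higher in the ovary. ZP3, another egg coat protein, was at 40.2, 6.03, 32.9, 85.3 and 13.03 CPM in the ovary and at no more than 0.0917 CPM in the uterus (log2 fold change 9.67 ± 0.98 SE, adjusted p = 4.19e-05 by edgeR; 9.03 without ovary library 4). In both genes ovary library 4 was the highest and ovary library 2 the lowest, and the organs did not overlap.

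LHX8 and FIGLA, transcription factors that oocytes need to form and hold primordial follicles, were also at 0 in the whole uterus group. LHX8 measured 27.9, 4.01, 22.7, 26.8 and 6.27 CPM in the ovary, at least 1490-fold above the uterus, and FIGLA measured 14.6, 1.94, 10.97, 22.6 and 3.14 CPM, at least 901-fold above it. Libraries 1, 3 and 4 were high and libraries 2 and 5 low for both. BMP15, a growth factor that the oocyte secretes onto its granulosa cells, was at 13.9, 3.96, 5.26, 5.05 and 5.98 CPM in the ovary and at 0 in the uterus, a gap of at least 567-fold. Its partner GDF9 differed less: 14.2, 4.82, 8.55, 13.8 and 5.44 CPM in the ovary against 1.37, 1.47, 1.47, 1.16 and 1.65 CPM in the uterus (log2 fold change 2.78 ± 0.33 SE, adjusted p = 8.49e-05 by edgeR). GDF9 had counts in every uterus library, unlike BMP15, and its lowest ovary value was above its highest uterus value.

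Genes of germ cells and meiosis were called in part. Of 24 listed genes, 19 were tested, 12 were called higher in the ovary and none lower, with a median log2 fold change of 2.23. DDX4, an RNA helicase that marks germ cells, was at 9.96, 1.94, 7.13, 8.06 and 3.05 CPM in the ovary and at 0.279 to 0.7602 CPM in the uterus (log2 fold change 3.70 ± 0.50 SE, adjusted p = 1.96e-04 by edgeR). PIWIL2, which binds the small RNAs that silence transposons in germ cells, was at 8.101, 2.302, 6.87, 8.04 and 2.96 CPM in the ovary and had counts in 1 uterus library, at 0.168 CPM. SMC1B, a cohesin subunit of meiosis, and DAZL, a germ cell RNA-binding protein, had no count in any uterus library against 0.485 to 3.77 and 0.533 to 2.88 CPM in the ovary, and SYCP3, a protein of the synaptonemal complex, was at 0.298 to 2.04 CPM against no more than 0.0184. Across these genes ovary libraries 2 and 5 were again the low ones. The summed level of the list overlapped between the organs, from 157.2 to 316.5 CPM in the ovary and from 176.2 to 226.4 in the uterus, 5 listed genes were too low to test and 7 tested ones were not called.

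Granulosa cell genes lay on the ovarian side, with summed levels of 1722 to 2734 CPM in the ovary and 462.3 to 601.3 in the uterus. Of 21 listed, 20 were tested and 15 called higher, with none lower and a median log2 fold change of 2.62. FSHR, the receptor for follicle-stimulating hormone, was at 142, 95.3, 162, 112 and 112 CPM in the ovary and at no more than 0.0841 CPM in the uterus (log2 fold change 11.47 ± 0.45 SE, adjusted p = 1.01e-07 by edgeR). AMH, anti-Müllerian hormone of small growing follicles, was at 136, 115, 158, 163 and 139 CPM in the ovary and 0.138 to 0.247 CPM in the uterus (log2 fold change 9.58 ± 0.23 SE, adjusted p = 1.10e-09). Ovary library 2 was the lowest in both genes, and the organs did not overlap. INHA, the alpha subunit of inhibin, was at 47.5 ± 5.202 CPM (mean ± SD, n = 5) in the ovary and at 0.185 ± 0.128 CPM in the uterus.

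CYP19A1, the aromatase that makes estrogen, was at 12.9, 23.98, 13.1, 19.9 and 10.6 CPM in the ovary and had counts in 2 of the 5 uterus libraries, at no more than 0.160 CPM (log2 fold change 8.39 ± 0.73 SE; 9.30 without uterus library 5). Here ovary library 2 was the highest. FOXL2, the transcription factor that keeps granulosa cells in their fate, was also highest in ovary library 2, at 10.4, 70.7, 12.7, 6.802 and 21.4 CPM in the ovary and 1.49, 5.35, 2.46, 0.916 and 2.29 CPM in the uterus (log2 fold change 3.30 ± 0.70 SE, adjusted p = 0.00398 by edgeR). Without ovary library 2 its log2 fold change was 2.46, with an adjusted p of 0.0033.

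Steroid synthesis genes followed. Of 19 listed, 14 were matched, 13 tested, 8 called higher in the ovary and none lower, with a median log2 fold change of 2.99. CYP11A1, which cuts the side chain of cholesterol in the first step, was at 81.97, 151, 185, 95.6 and 126 CPM in the ovary and at no more than 0.194 CPM in the uterus (log2 fold change 11.02 ± 0.64 SE, adjusted p = 9.86e-07 by edgeR; 12.22 without uterus library 3). CYP17A1, which makes androgen in theca cells, was at 13.5, 80.8, 101, 24.2 and 33.7 CPM in the ovary with 2 counts in the whole uterus group, both in library 2, a ratio of 6546 (95% counting interval 1812 to 54055). Ovary library 3 was the highest for both, and library 1 the lowest. The 2 genes stand in the reference names under LOC identifiers and were matched through their synonyms.

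INSL3, a peptide hormone of theca cells, was at 4.75, 10.2, 25.9, 11.4 and 21.9 CPM in the ovary and had 3 counts in the uterus group, all in library 1, a ratio of 1303 (95% counting interval 446 to 6321). STAR, which carries cholesterol into mitochondria, differed less and overlapped between the organs: 40.3, 18.7, 13.5, 4.71 and 7.78 CPM in the ovary and 4.96, 0.863, 0.707, 0.996 and 3.32 CPM in the uterus (log2 fold change 2.99 ± 0.70 SE, adjusted p = 0.00677 by edgeR; 3.61 without uterus library 1). STAR was highest in ovary library 1, where CYP11A1, CYP17A1 and INSL3 were lowest. The list of 8 adrenal cortex genes, markers of another steroid organ, had 1 member tested, NR5A1, which the gonad also uses.

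Cholesterol synthesis, which supplies the substrate, was higher in the ovary for 11 of 24 listed genes (21 tested, none lower, median log2 fold change 1.17), and for 4 in the fit of all 40 libraries. DHCR7, a reductase of the pathway, was at 33.01, 35.9, 37.9, 42.6 and 24.96 CPM in the ovary against 4.79, 6.099, 8.26, 7.53 and 11.6 CPM in the uterus (log2 fold change 2.27 ± 0.21 SE, adjusted p = 1.80e-05 by edgeR). The epoxidase SQLE differed by 1.86 ± 0.31 SE and the cyclase LSS by 1.81 ± 0.24 SE on the log2 scale. In these 3 genes the lowest ovary lay above the highest uterus, as it did for 13 of the listed genes. One gene, HSD17B7, stands in this list and in that of steroid synthesis.

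Regulators of the gonad's somatic cells, mostly transcription factors, went both ways: 10 of 20 were called higher in the ovary and 5 lower. NR5A1, the steroidogenic regulator, was at 66.6, 78.6, 64.2, 58.9 and 58.6 CPM in the ovary and at 0 in 3 of the 5 uterus libraries (log2 fold change 8.98 ± 0.78 SE, adjusted p = 1.53e-05 by edgeR; 10.24 without uterus library 5). LHX9, a homeobox factor of the gonadal ridge, was at 10.7, 5.499, 5.94, 6.23 and 4.55 CPM in the ovary and at 0 in every uterus library, and IRX5 was at 3.55 to 4.68 CPM against 0 to 0.925. WT1, which both the early gonad and the uterine stroma express, was at 40.03, 57.6, 17.99, 27.2 and 25.3 CPM in the ovary and 39.1, 30.4, 34.9, 39.3 and 63.6 CPM in the uterus, and the groups overlapped (log2 fold change -0.25 ± 0.26 SE, adjusted p = 0.499). LGR5, a receptor for R-spondins, stood on the uterine side at 151, 31.4, 35.6, 50.3 and 67.6 CPM against 0.593 to 3.09 CPM in the ovary.

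**Figure D2:**
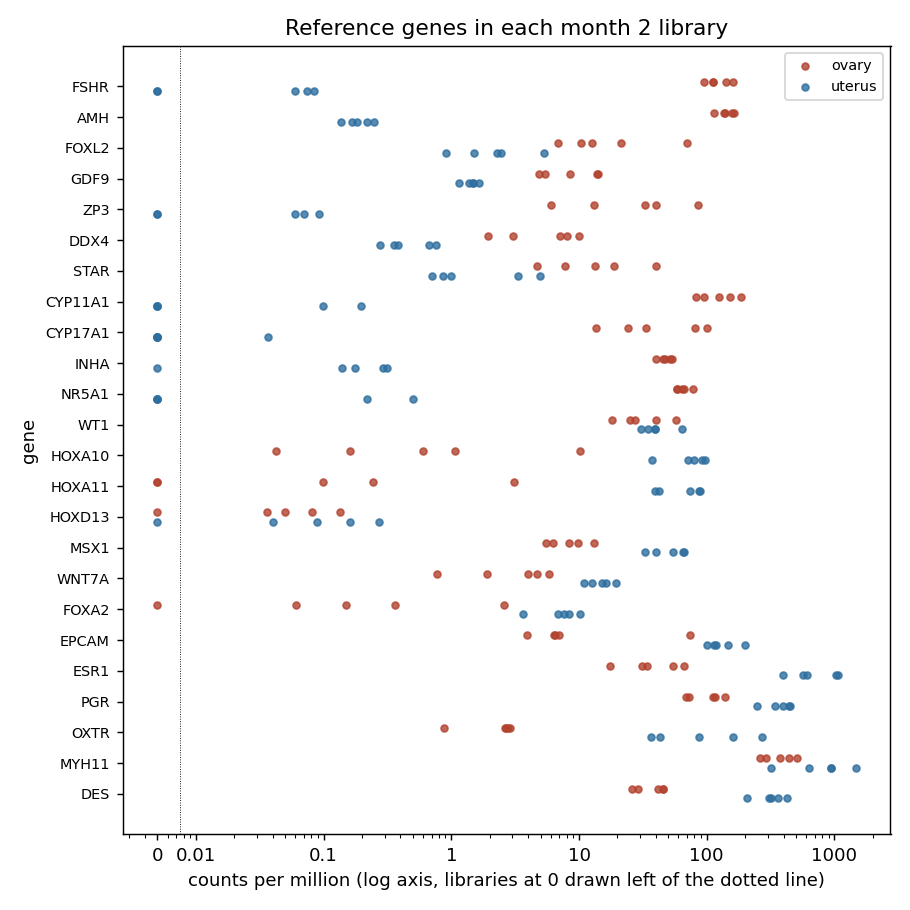
Level of 24 reference genes in each month 2 library (CPM, log axis; libraries at 0 are drawn left of the dotted line), ovary in red and uterus in blue, 1 point per library. FSHR, AMH and NR5A1 separate the organs without overlap, WT1 and HOXD13 overlap, and EPCAM has 1 ovary library at 73.5 CPM beside 4 at 3.92 to 6.94.

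Cell cycle genes were higher in the ovary, and none of the 40 was called lower. Called higher were 29 of them, with a median log2 fold change of 2.08, and all 5 ovaries lay above all 5 uteri for 30. AURKA, a mitotic kinase that oocytes also use in meiosis, was at 79.7, 27.7, 69.6, 86.3 and 29.9 CPM in the ovary and 0.631, 1.41, 3.59, 0.936 and 3.14 CPM in the uterus (log2 fold change 5.01 ± 0.55 SE, adjusted p = 6.34e-05 by edgeR). Ovary libraries 1, 3 and 4 were its high ones, as for LHX8 and FIGLA. CENPA, the histone variant of centromeres, was at 14.7, 25.9, 24.5, 14.7 and 22.4 CPM in the ovary and 0.589, 1.38, 4.08, 0.478 and 3.78 CPM in the uterus (log2 fold change 3.42 ± 0.57 SE). Its high ovaries were libraries 2, 3 and 5 instead, so the 2 genes order the ovaries differently. CCNB2, a mitotic cyclin, differed by 3.45 ± 0.79 SE and NDC80, of the kinetochore, by 2.80 ± 0.53 SE.

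Within the uterus the cell cycle genes were uneven. Their summed level was 1086 CPM in library 3 and 946.7 CPM in library 5, against 486.9 to 634.6 in the others, and 1623 to 2279 CPM in the ovary. MKI67, a protein of dividing cells that was picked here after its values were seen, was at 25.7, 62.6, 28.3, 20.7 and 29.9 CPM in the ovary and 1.997, 3.78, 10.9, 1.04 and 27.4 CPM in the uterus, where library 5 reached the ovarian range (log2 fold change 2.01 ± 0.74 SE, adjusted p = 0.0561 by edgeR, not called).

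**Figure D3:**
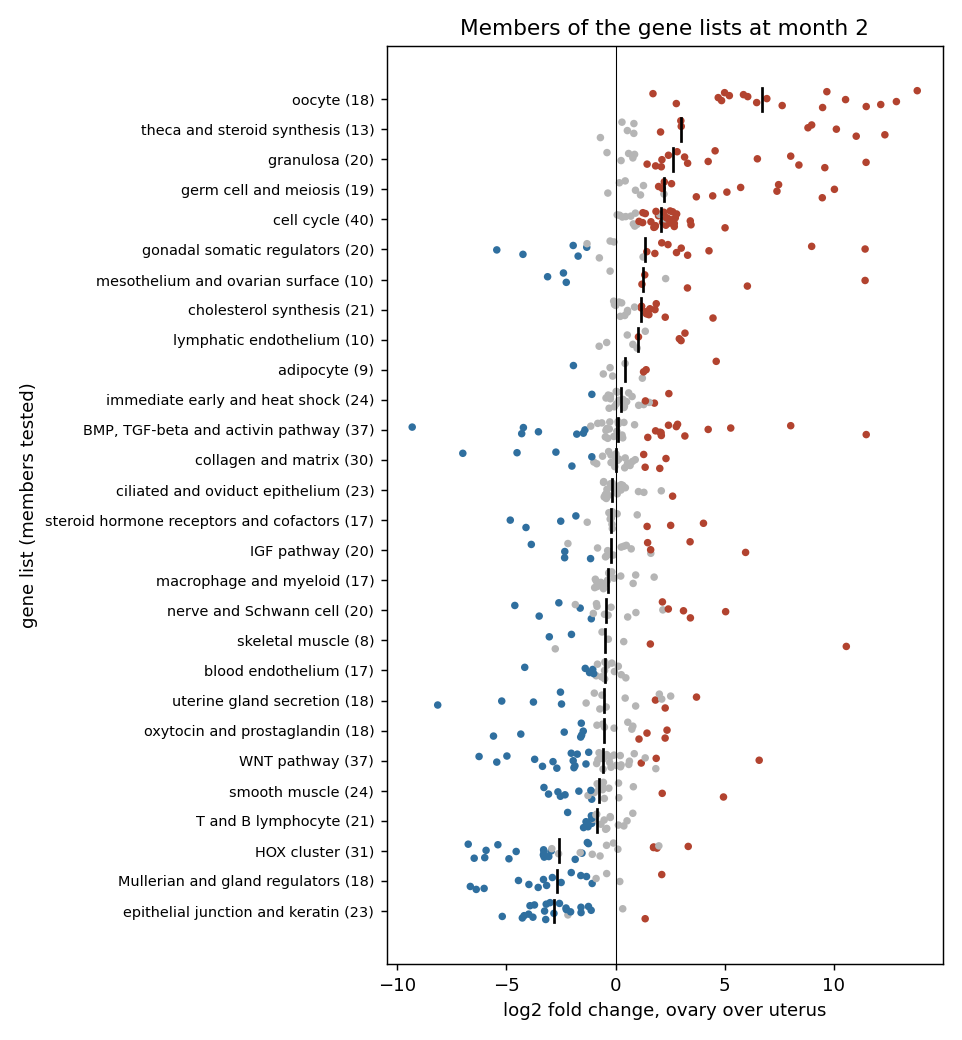
Log2 fold change of the ovary over the uterus for the tested members of 28 gene lists, ordered by their median (black bar), with called members in red (higher in the ovary) or blue (higher in the uterus) and others in grey; numbers in brackets are members tested. The oocyte median is 6.69, and the epithelial median of -2.82 is the lowest.

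The HOX genes lay mostly on the uterine side. Of 36 listed, 34 were matched and 31 tested, and 18 were called lower in the ovary, 4 higher, with a median log2 fold change of -2.61. The clusters differed in their counts: HOXA had 8 called lower and none higher of 11 tested, HOXB 6 of 7 and HOXD 4 of 6, while HOXC had 4 higher and none lower of 7, although HOXC11 differed by -2.92 (adjusted p = 0.0654 by edgeR, not called). HOXA11, which patterns the uterus, was at 41.9, 39.6, 88.2, 74.2 and 86.3 CPM in uterus libraries 1 to 5 and at 0.245, 0, 0.0996, 3.11 and 0 CPM in the ovary (log2 fold change -6.47 ± 1.17 SE, adjusted p = 0.0016 by edgeR). HOXA10 was at 37.6, 96.7, 79.2, 92.1 and 71.2 CPM in the uterus and 1.06, 0.0426, 0.597, 10.1 and 0.162 CPM in the ovary (-4.88 ± 1.13 SE). HOXD11 was at 7.97, 41.3, 71.2, 80.2 and 69.1 CPM in the uterus and 0.245, 0, 0.282, 1.72 and 0.0719 CPM in the ovary (-6.75 ± 1.04 SE). The groups did not overlap in these 3 genes, and ovary library 4 stood above the other ovaries in each. Without it the log2 fold changes were -9.49 for HOXA11, -7.28 for HOXA10 and -8.34 for HOXD11.

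HOXA13, which acts toward the cervix and vagina, varied widely within the uterus: 106, 0.331, 46.5, 4.42 and 5.89 CPM in libraries 1 to 5, against 0.0426 to 0.953 CPM in the ovary, with uterus library 2 inside the ovarian range. Its log2 fold change was -5.99 ± 1.43 SE (adjusted p = 0.00795 by edgeR), -4.73 without uterus library 1, and with limma-voom its adjusted p was 0.189. HOXD13 reached no more than 0.273 CPM in any of the 10 libraries and was not tested. HOXB8 was at 1.195 to 3.44 CPM in the uterus and 0 to 0.06395 CPM in the ovary. The 4 HOXC genes called higher in the ovary were HOXC4, HOXC5, HOXC6 and HOXC8, named after their values were seen. Among them HOXC8 was at 9.101, 10.8, 5.18, 6.61 and 5.41 CPM in the ovary against 0.4205, 1.82, 0.371, 0.478 and 0.665 CPM in the uterus (log2 fold change 3.33 ± 0.47 SE, adjusted p = 2.94e-04), and uterus library 2 was the highest uterus.

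**Figure D4:**
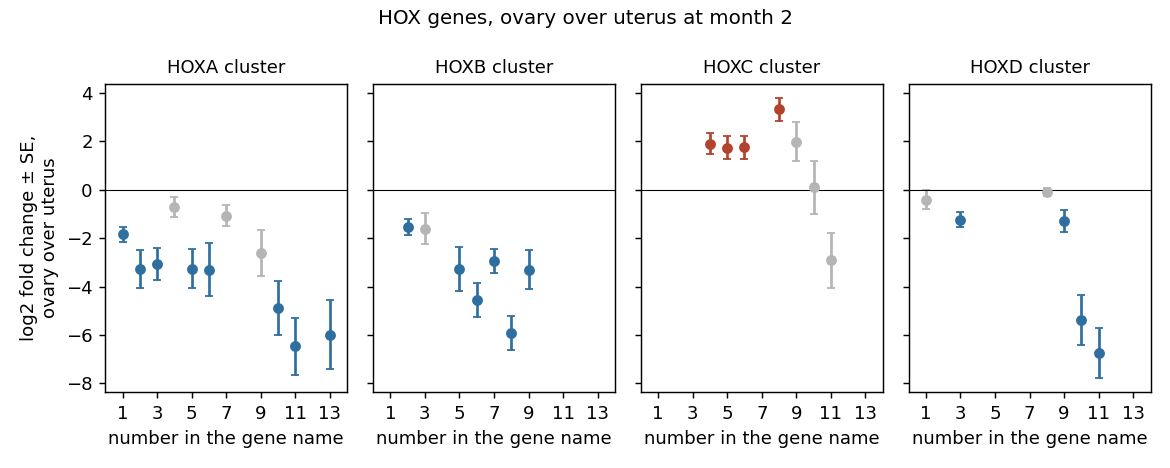
Log2 fold change ± SE of the ovary over the uterus for 31 HOX genes, by cluster and by the number in the gene name, in red where called higher in the ovary, blue where called higher in the uterus and grey otherwise. HOXA, HOXB and HOXD members lie below 0, down to -6.75, while HOXC4, HOXC5, HOXC6 and HOXC8 lie above it and HOXC11, not called, lies at -2.92.

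Regulators of the Müllerian duct and of gland formation were lower in the ovary for 14 of 20 listed genes (18 tested), with a median log2 fold change of -2.69. The single one called higher in the ovary was TCF21, a factor of mesenchymal cells that also stands among the gonadal regulators, at 2.11 ± 0.19 SE; it was singled out after its value was seen. Leaving out ovary library 5 or any 1 uterus library gave 2 such genes. HAND2, a stromal factor downstream of progesterone in the mouse, was at 49.6, 70.8, 57.7, 74.8 and 55.5 CPM in the uterus and 0.286, 1.92, 0.282, 0.552 and 0.0359 CPM in the ovary (log2 fold change -6.65 ± 0.71 SE, adjusted p = 5.63e-05 by edgeR; -7.65 without ovary library 2). DLX6 and DLX5, paired homeobox factors, were at 11.8 to 31.1 and 1.16 to 4.61 CPM in the uterus and 0.0719 to 0.4897 and 0 to 0.126 CPM in the ovary. MSX1 was at 51.7 ± 14.9 CPM (mean ± SD, n = 5) in the uterus and 8.6 ± 3.01 CPM in the ovary, and the epithelial signal WNT7A at 14.9 ± 3.301 and 3.43 ± 2.07 CPM. PAX2, a duct factor, differed by -4.45 ± 0.95 SE, and by -5.61 without ovary library 2. FOXA2, which endometrial glands need, was at 3.62, 7.61, 10.3, 6.87 and 8.32 CPM in the uterus and 0.0612, 2.58, 0.149, 0.362 and 0 CPM in the ovary (log2 fold change -3.54 ± 1.05 SE, adjusted p = 0.0225; -5.55 without ovary library 2), and its call was lost without ovary library 3 or 4, each with an adjusted p of 0.056.

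Epithelial genes had the lowest median of those 28 lists: 20 of 24 listed (23 tested) were called lower in the ovary and 1 higher, the cadherin CDH3, with a median log2 fold change of -2.82. EPCAM, an adhesion protein of epithelia, was at 199.7, 119, 115, 99.9 and 147 CPM in the uterus and 6.94, 73.5, 6.41, 6.44 and 3.92 CPM in the ovary (log2 fold change -2.82 ± 0.78 SE, adjusted p = 0.0165 by edgeR). The tight junction claudin CLDN7 was at 52.1, 46.7, 39.2, 32.5 and 40.6 CPM in the uterus and 0.245, 10.3, 0.796, 0.229 and 0.287 CPM in the ovary (-4.19 ± 1.04 SE). Ovary library 2 was far above the other ovaries in both, though below every uterus, and it also held the high values of cilia genes. Without it EPCAM differed by -4.44 and CLDN7 by -6.63 on the log2 scale, and 21 of the listed genes were called lower. In the fit of all 40 libraries 13 were. CLDN4 was at 5.695 to 13.4 CPM in the uterus and 0.0719 to 0.4903 CPM in the ovary, and CLDN10 at 34.8 to 135 and 2.68 to 6.02 CPM. ELF3, an epithelial transcription factor, was at 17.9 to 49.05 CPM against 1.03 to 3.75.

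**Figure D5:**
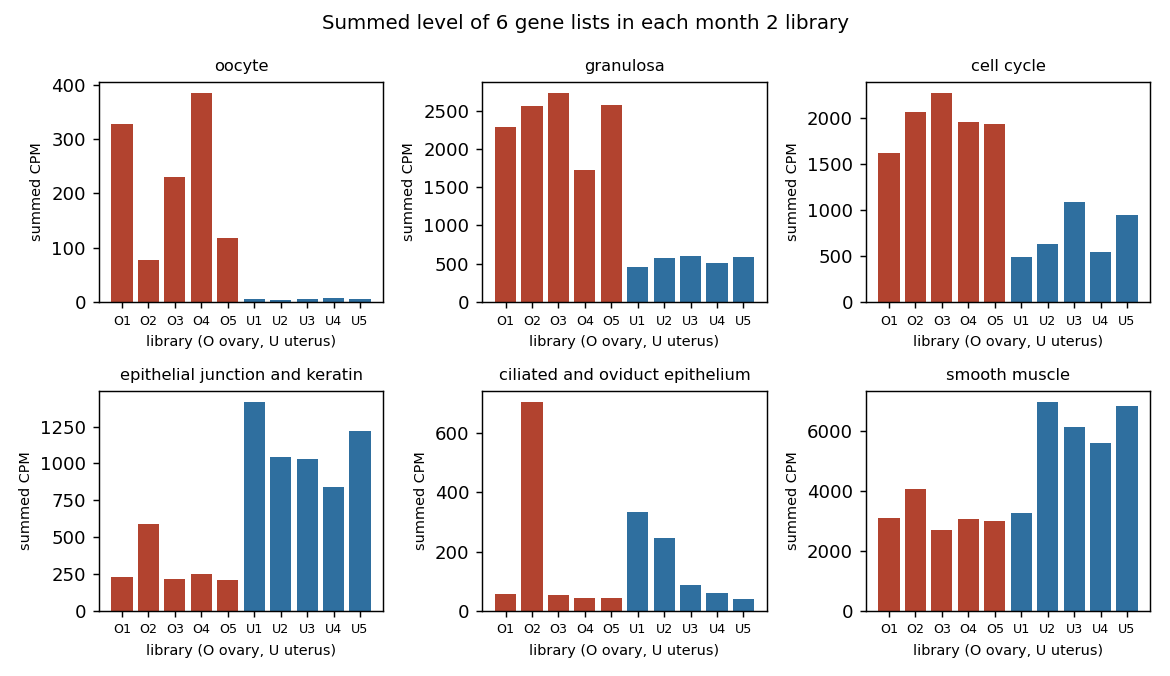
Summed CPM of 6 gene lists in each month 2 library, with ovary libraries 1 to 5 (O1 to O5) in red and uterus libraries 1 to 5 (U1 to U5) in blue. Ovary library 2 has the lowest oocyte sum of the ovaries (76.74 CPM) and the highest sum of ciliated and oviduct genes (707.8 CPM); uterus libraries 3 and 5 have the highest cell cycle sums of the uteri.

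Secreted products linked to the adult endometrium were mixed at this age. Of 20 listed, 18 were tested, 5 were called lower in the ovary and 3 higher, with a median log2 fold change of -0.53. GRP, gastrin-releasing peptide, was at 5.89, 23.5, 15.6, 29.8 and 5.78 CPM in the uterus and 0.0816, 0, 0.0996, 0.0762 and 0 CPM in the ovary (log2 fold change -8.14 ± 0.82 SE, adjusted p = 3.18e-05 by edgeR). The immunoglobulin transporter PIGR was at 5.02 to 24.7 CPM in the uterus and 0.0381 to 0.952 CPM in the ovary, and the mucin MUC1 at 3.33 to 12.8 and 0.08297 to 1.39 CPM. WFDC2, a secreted antiprotease of epithelia, overlapped between the organs: 8.96, 2.08, 5.07, 1.89 and 3.65 CPM in the uterus and 0.204, 2.601, 0.266, 0.305 and 0.395 CPM in the ovary (-2.52 ± 0.75 SE). Its ovarian maximum was in library 2, and without that library it differed by -3.78; its call was lost without any one of ovary libraries 3, 4 and 5 or uterus library 1. The count of genes higher in the ovary was 5 without uterus library 4 and 6 with DESeq2.

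Receptors of the steroid hormones themselves were unequal between the organs. ESR1, the main estrogen receptor, was at 396, 564, 1069, 612 and 1031 CPM in the uterus and 31.4, 66.1, 17.4, 54.6 and 33.9 CPM in the ovary (log2 fold change -4.10 ± 0.38 SE, adjusted p = 1.72e-05 by edgeR). PGR, the progesterone receptor, was at 246, 341, 396, 438 and 448 CPM in the uterus and 113, 139.7, 68.5, 115 and 72.5 CPM in the ovary (-1.82 ± 0.20 SE, adjusted p = 4.77e-05). The groups did not overlap in either gene. GREB1, an estrogen-induced gene in human breast cells, went the other way, at 500.5, 494, 370.3, 309 and 313 CPM in the ovary and 2.901, 42.1, 22.6, 26.8 and 33.03 CPM in the uterus, where library 1 was the low one (4.02 ± 0.54 SE, adjusted p = 2.61e-04). FKBP5, a chaperone of steroid receptors, was higher in the ovary by 2.52 ± 0.28 SE, and HSD11B2, which inactivates cortisol, lay on the uterine side at -2.51 ± 0.43 SE. In all, 3 of 18 listed genes were called higher in the ovary and 4 lower (17 tested), beside 11.5% and 9.2% of all genes tested.

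Oxytocin and prostaglandin genes were called lower in the ovary for 7 and higher for 4 of 20 listed (18 tested). OXTR, the oxytocin receptor that drives uterine contraction, was at 86.5, 36.5, 43.1, 272 and 160 CPM in the uterus and 2.67, 2.899, 2.804, 2.61 and 0.8804 CPM in the ovary (log2 fold change -5.59 ± 0.64 SE, adjusted p = 8.66e-05 by edgeR). The groups did not overlap, and uterus libraries 4 and 5 were the highest. Among prostaglandin genes, the receptor PTGER3 was at 14.2 to 61.6 CPM in the uterus and 2.69 to 13.4 CPM in the ovary. The synthase PTGES was on the other side, at 11.5, 8.08, 13.9, 11.4 and 9.05 CPM in the ovary and 5.13, 0.827, 1.77, 1.67 and 1.56 CPM in the uterus (2.36 ± 0.45 SE; 2.99 without uterus library 1). AKR1B1, an aldose reductase that can make prostaglandin F, was at 92.1 to 138 CPM in the ovary and 13.5 to 44.1 CPM in the uterus. The count of genes higher in the ovary was 2 without ovary library 3, and that of lower ones was 4 with all 40 libraries.

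Smooth muscle genes were lower in the ovary for 8 of 24 tested and higher for 2, with a median log2 fold change of -0.77. DES, desmin of muscle intermediate filaments, was at 209, 428, 318, 360.5 and 310.1 CPM in the uterus and 41.4, 45.1, 25.9, 45.2 and 29.1 CPM in the ovary (log2 fold change -3.07 ± 0.21 SE, adjusted p = 2.36e-06 by edgeR). MYH11, the myosin of smooth muscle, was high in both organs and overlapped: 319.6, 935, 638, 945 and 1465 CPM in the uterus and 439, 509, 260.3, 374 and 289 CPM in the ovary (-1.13 ± 0.31 SE, adjusted p = 0.0155). Without uterus library 5 it differed by -0.91 and was not called. PGM5, a protein of muscle adhesion sites, was at 723 ± 168 CPM in the uterus and 70.5 ± 14.2 CPM in the ovary (mean ± SD, n = 5). The muscarinic receptor CHRM2 differed by -2.53 ± 0.23 SE and the potassium channel subunit KCNMB1 by -2.64 ± 0.36 SE. Uterus library 1 was the low uterus across this list, with a sum of 3258 CPM against 5599 to 6989 in the other uteri and 2700 to 4060 in the ovary.

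WNT pathway genes were called lower in the ovary for 14 and higher for 3 of 40 listed (37 tested). Among ligands, WNT16 was at 54.5, 36.6, 48.4, 31.4 and 59.9 CPM in the uterus and 0.204, 1.002, 0.133, 0.8002 and 0.755 CPM in the ovary (log2 fold change -6.25 ± 0.51 SE, adjusted p = 7.46e-06 by edgeR), and WNT2 at 15.4 to 83.6 and 0.395 to 1.41 CPM. RSPO2, an R-spondin that raises WNT signals and that mouse oocytes make, was at 12.6, 2.77, 11.1, 12.7 and 6.99 CPM in the ovary and 0.378, 0.0367, 0, 0.0398 and 0.0459 CPM in the uterus (6.58 ± 0.90 SE, adjusted p = 2.45e-04; 8.26 without uterus library 1). Within the ovary RSPO2 was lowest in library 2, followed by library 5, as ZP4, LHX8 and FIGLA were. The receptor LGR5 lay on the uterine side at -5.44 ± 0.59 SE, or -4.85 without uterus library 1. Without ovary library 2, and likewise with limma-voom, 5 genes were called higher.

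In the BMP, TGF-beta and activin pathway 13 of 39 listed genes (37 tested) were called higher in the ovary and 7 lower, with a median log2 fold change of 0.12; with all 40 libraries 8 were higher. Ligands stood on both sides. GDF7 was at 11.2, 20.1, 35.04, 17.9 and 54.2 CPM in the uterus and 0, 0, 0, 0.191 and 0 CPM in the ovary (log2 fold change -9.31 ± 0.91 SE, adjusted p = 2.79e-05 by edgeR; library 4 was the 1 ovary with counts, and without it no fold is given). GDF5, of the same subfamily, was at 3.61, 6.01, 11.6, 5.81 and 9.397 CPM in the ovary and 0.119 to 0.413 CPM in the uterus (5.27 ± 0.47 SE). The oocyte ligands BMP15 and GDF9 and the inhibin subunit INHA, described above, are also members of this list.

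IGF pathway genes were called higher for 4 and lower for 4 of 20. IGF1, the growth factor, was at 312, 639, 557, 877 and 745 CPM in the uterus and 66.7, 300, 72.7, 89.7 and 75.1 CPM in the ovary (log2 fold change -2.33 ± 0.43 SE, adjusted p = 0.00171 by edgeR), and ovary library 2 was the high ovary. Without it the difference was -2.93. IGFBP2, which binds IGFs, was at 249, 156, 412, 273 and 424 CPM in the ovary and 2.29, 5.03, 8.06, 7.23 and 3.48 CPM in the uterus (5.95 ± 0.46 SE, adjusted p = 5.71e-06). PAPPA, a protease that cuts IGF-binding proteins, was at 5.69 to 25.6 CPM in the uterus and 0.539 to 1.33 CPM in the ovary, while STC2, an inhibitor of that protease, was higher in the ovary by 3.41 ± 1.00 SE, or 4.74 without uterus library 5.

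Matrix genes had no common side, with 4 of 30 called higher, 5 lower and a median log2 fold change of 0.03. Over all genes tested the shares were 11.5% higher and 9.2% lower. With all 40 libraries 2 matrix genes were higher. POSTN, periostin of the stromal matrix, was at 2875, 3488, 3638, 3320 and 3858 CPM in the uterus and 24.1, 36, 15.5, 37.5 and 16.6 CPM in the ovary (log2 fold change -6.99 ± 0.30 SE, adjusted p = 1.10e-07 by edgeR). This was the largest share of counts among the called genes of the uterus that had a symbol and did not overlap. TNC, tenascin C, was at 132 to 362 CPM in the uterus and 4.68 to 18.6 CPM in the ovary, and TNXB at 104 to 208 and 11.9 to 37.9 CPM. COL8A1, a short-chain collagen, was higher in the ovary by 2.31 ± 0.27 SE.

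Markers of other cells and tissues were measured beside these groups, and their part in them was not tested. Blood endothelium had 5 of 17 genes called lower in the ovary and none higher. Its summed level was 462.7 to 665.2 CPM in the ovary and 809.3 to 1057 in the uterus, PECAM1 differed by -1.39 ± 0.16 SE and PLVAP, a protein of endothelial pores, by -4.16 ± 0.61 SE (-5.10 without ovary library 2). The count was 3 without ovary library 4 and 2 with all 40 libraries. ESAM and MMRN2 differed by -1.19 ± 0.21 and -1.04 ± 0.11 SE, and the call of MMRN2 was lost without ovary library 4. Lymphatic endothelium genes lay mostly the other way, with 4 of 10 called higher in the ovary and none called lower. At an unadjusted p under 0.05 by edgeR, 7 were higher and 1 lower, beside 8072 of all 18331 genes tested in either direction. Their sum was 553.6 to 808.6 CPM in the ovary and 166.3 to 321.5 in the uterus. A large part of the ovarian sum was MMRN1, a multimerin. It was at 270.3, 267, 504, 577 and 552 CPM in the ovary and 68.5, 83.8, 28.4, 78.8 and 24.9 CPM in the uterus (3.00 ± 0.45 SE, adjusted p = 4.34e-04 by edgeR). PDPN, podoplanin, which mesothelium and granulosa cells of some species also make, differed by 2.92 ± 0.19 SE. PROX1, the defining lymphatic transcription factor, differed by 1.05 ± 0.24 SE and its call was lost without ovary library 1 or uterus library 3 or 5. With all 40 libraries 2 lymphatic genes were called.

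T and B lymphocyte genes were called lower in the ovary for 8 of 26 listed (21 tested) and higher for none, with sums of 69.15 to 125.9 CPM in the ovary and 147.5 to 216.6 in the uterus. CD3G, of the T cell receptor complex, was at 20.3, 30.6, 26.04, 33.6 and 40.4 CPM in the uterus and 13.1, 9.59, 7.998, 13.3 and 12.04 CPM in the ovary (log2 fold change -1.35 ± 0.20 SE, adjusted p = 3.23e-04 by edgeR). The count was 3 without ovary library 3 and 2 without uterus library 5, and it was 1 in the fit of all 40 libraries and 4 in that of 37. CD2 differed by -1.47 ± 0.38 SE, and the B cell genes CD22 and POU2AF1 by -1.26 ± 0.40 and -2.19 ± 0.74 SE. The call of CD22 was lost without ovary library 3 or 4 or uterus library 2 or 5, and that of POU2AF1, at no more than 1.58 CPM, without any one of 8 libraries; without ovary library 1 it differed by -2.85. No macrophage gene was called in either direction among 17 tested by edgeR, DESeq2 or limma-voom. By edgeR 10 of them had an unadjusted p under 0.05 (3 higher, 7 lower), beside 8072 of all 18331 genes tested. Sums of the macrophage list overlapped at 148.9 to 314.6 CPM in the ovary and 220.8 to 362.8 in the uterus. Scaling by library totals alone called 1 lower. Leaving out 1 library gave at most 2 calls in a direction: 2 lower without ovary library 1 or 2, and 2 higher without uterus library 1.

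Nerve and Schwann cell genes were split, with 5 of 24 listed (20 tested) called higher and 5 lower. CHGA, chromogranin A of secretory granules, was at 43.8, 56.5, 74.3, 51.8 and 63.5 CPM in the ovary and 1.85, 10.5, 6.17, 4.98 and 4.93 CPM in the uterus (3.43 ± 0.39 SE), and NEFH, a neurofilament, was higher in the ovary by 5.04 ± 0.99 SE (6.59 without uterus library 5). ERBB3, a receptor that Schwann cells share with epithelia, was on the uterine side at -3.50 ± 0.34 SE, as was the receptor RET at -4.61 ± 0.44 SE. The lower count was 3 without any one of ovary libraries 3 and 4 and uterus libraries 1 and 3, 3 with limma-voom and 2 with all 40 libraries. The ciliated list had 1 of 25 genes called, CCNO, a regulator of centriole formation that was higher in the ovary at 2.61 ± 0.41 SE, and none lower by edgeR, DESeq2 or limma-voom (0 were lower even at an unadjusted p under 0.05); without ovary library 2, 8 were called lower.

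Mesothelium and ovarian surface genes were called higher for 5 and lower for 3 of 13 listed (10 tested). Their summed level overlapped, at 85.67 to 267.3 CPM (median 112.3) in the ovary and 190.8 to 425.5 CPM (median 260.7) in the uterus. CALB2, calretinin, differed by 6.03 ± 0.98 SE (7.96 without uterus library 5) and BNC1, a transcription factor of surface epithelium and germ cells, by 3.29 ± 0.73 SE (4.69 without uterus library 2), while MSLN, mesothelin, was at 83.5, 9.74, 8.33, 2.97 and 9.63 CPM in the uterus and 0.9998, 5.71, 3.402, 1.85 and 1.22 CPM in the ovary (-3.11 ± 0.92 SE) and differed by -1.47 without uterus library 1, where its call was lost, as it was without ovary library 1, 4 or 5 and with limma-voom (adjusted p = 0.0766). The higher count was 3 without ovary library 4 or uterus library 4, and with all 40 libraries 2 were called higher and 0 lower. Among 14 adipocyte genes 3 were higher, 1 was lower and 5 were not tested; with all 40 libraries 1 was higher. PPARG, the fat cell regulator that granulosa cells also make, was at 71.5, 74.7, 86.5, 69.5 and 75.6 CPM in the ovary and 2.62 to 4.39 CPM in the uterus (4.61 ± 0.20 SE, adjusted p = 1.10e-07 by edgeR). LPL and LIPE were higher in the ovary by 1.40 ± 0.36 and 1.28 ± 0.35 SE and PLIN4 differed by -1.93 ± 0.40 SE. UPK1B was the 1 urothelial gene called, of 8 listed and 3 tested, at -2.39 ± 0.66 SE, or -3.61 without ovary library 2, where 2 genes were called lower and 1 higher; 1 was also called higher without ovary library 5 or uterus library 2. With all 40 libraries no urothelial gene was called lower, and DESeq2 and limma-voom called 2.

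Erythroid genes had summed levels of 2.192 to 9.336 CPM in the ovary and 0.5975 to 17.43 in the uterus, and 1 of 14 listed genes was called, EPB42 at 5.03 ± 1.31 SE, with counts in uterus library 3 alone among the uteri. That library sets the fold: without it every uterus is at 0 and no fold is given. Of 18 skeletal muscle genes 10 were not tested. CKM, muscle creatine kinase, was at 2.69, 1.88, 5.97, 2.93 and 4.06 CPM in the ovary and at 0 in every uterus library, NEB differed by 1.59 ± 0.21 SE, and the troponins TNNT1 and TNNT3 were on the uterine side at -3.03 ± 0.35 and -2.02 ± 0.33 SE. Of 26 immediate early and heat shock genes listed, some of which can respond to handling of tissue, 24 were tested. Called higher were 3 and lower 1, beside 11.5% and 9.2% of all genes tested. They were NR4A1 at 2.44 ± 0.31, FOS at 1.78 ± 0.39, HSPA8 at 1.37 ± 0.19 and KLF4 at -1.09 ± 0.26 SE. The call of KLF4 was lost without ovary library 4 or uterus library 4. Without uterus library 5 the higher count was 5.

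The largest fold changes toward the ovary, among called genes with a symbol, no overlap and at least 10 CPM in the higher organ, were ZP4, LHX8, CLEC3A, RNF17, FIGLA, BBOX1, TDRD15, FSHR, SCN10A and SLC1A6. RNF17 and TDRD15 are Tudor domain proteins, a family that acts in germ cells. RNF17 was at 15.7, 2.43, 12.8, 18.6 and 4.49 CPM in the ovary and 0 in the uterus, and TDRD15 at 34.5, 2.39, 20.3, 35.3 and 7.64 CPM with 1 count in the uterus group. Both were lowest in ovary libraries 2 and 5. BBOX1, the last enzyme of carnitine synthesis, varied less between ovaries, at 12.04, 8.29, 10.7, 11.6 and 9.29 CPM in the ovary and 0 in the uterus, at least 875-fold higher. CLEC3A, a C-type lectin, was at 7.83 to 19.8 CPM, the sodium channel SCN10A at 18.2 to 44.4 CPM and the glutamate transporter SLC1A6 at 12.3 to 46.97 CPM in the ovary, each with at most 4 counts in the uterus group.

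Toward the uterus the 10 were S100G, SMPX, GDF7, ACSM3, GRP, CP, RORB, IL1RL2, SLITRK3 and POSTN. S100G, a calcium-binding protein known as calbindin-D9k, was at 108, 13.5, 13.8, 4.32 and 5.85 CPM in the uterus with 3 counts in the ovary group, a ratio of uterus to ovary of 2494 (95% counting interval 853 to 12094). Library 1 held most of it, and without that library the log2 fold change was -9.36 against -11.05 ± 1.49 SE with it. The 3 ovarian counts were all in library 3. CP, the copper carrier ceruloplasmin, was at 1160, 409, 455, 440.1 and 463 CPM in the uterus and 1.92, 5.78, 1.11, 0.8002 and 1.22 CPM in the ovary (-8.08 ± 0.68 SE, adjusted p = 1.15e-05 by edgeR; -8.80 without ovary library 2). RORB, a nuclear receptor, was at 62.4, 157, 339, 666 and 422 CPM in the uterus and 0.324 to 2.25 CPM in the ovary, and IL1RL2, the receptor of interleukin-36, at 65.4, 18.1, 15.3, 3.07 and 8.51 and 0 to 0.341 CPM. Uterus library 1 was the highest for S100G, CP and IL1RL2 and the lowest for RORB. ACSM3, a mitochondrial acyl-CoA synthetase, was at 31.3 to 81.97 CPM, SMPX, a small muscle protein, at 17.6 to 50.04 CPM and SLITRK3, a synaptic adhesion protein, at 6.39 to 20.1 CPM in the uterus.

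Among genes called higher in the ovary that had a symbol and no overlap, those with the highest mean CPM there were HSPA8, VIM, IVNS1ABP, SRGN and MGP. SRGN, the proteoglycan serglycin, was at 1349, 964, 1436, 983 and 1033 CPM in the ovary and 75.1, 79.8, 73.04, 49.6 and 75.9 CPM in the uterus (4.10 ± 0.20 SE, adjusted p = 2.31e-07 by edgeR), and IVNS1ABP, a kelch protein, at 1341 ± 132 and 185 ± 19.6 CPM (mean ± SD, n = 5). HSPA8, VIM and MGP were 1.15 to 1.72 log2 units higher in the ovary. By the same rule those of the uterus were POSTN, TXNIP, TIMP3, PDE5A and ESR1. TIMP3, a protease inhibitor of the matrix, was at 1528 ± 283 CPM in the uterus and 564 ± 88.1 CPM in the ovary, and PDE5A, which breaks down cyclic GMP in smooth muscle, at 1149 ± 128 and 106 ± 33.9 CPM (mean ± SD, n = 5). TXNIP lay at the fold threshold (-1.01 ± 0.24 SE), and its call was lost without any one of ovary libraries 2, 3 and 5 and uterus libraries 1 and 2, and with limma-voom (-0.96).

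Genes measured in one organ alone were mostly ovarian. At least 1 CPM in each ovary library with no count in any uterus library was met by 47 genes, and the reverse by 3. Of the 47, 21 are protein-coding genes with a symbol, 8 are protein-coding genes with a LOC identifier, 11 are loci assembled from the reads and 7 are other RNAs or pseudogenes, while the 3 uterine ones are all assembled loci. With at most 0.1 CPM allowed in the other organ the counts were 92 and 15. Assembled loci were called higher in the ovary in 35.2% of 704 tested and lower in 13.2%, beside 10.6% and 9.15% of protein-coding genes with a symbol. Among LOC genes the largest folds toward the ovary were those of LOC102174444, at 32.4, 56.5, 102, 106 and 103 CPM, and LOC102189358, at 80.4, 14.3, 80.2, 150.2 and 24.9 CPM, both at 0 in the uterus. Toward the uterus they were LOC102181752, at 10.9, 16.4, 18.8, 3.39 and 12.6 CPM in the uterus, and LOC108637307, at 15.8, 7.42, 8.91, 9.699 and 28.9 CPM, each at no more than 0.213 CPM in an ovary.

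The difference between organs at month 2 was then set against that at the other ages, by testing the difference of the 2 differences over all 40 libraries in 8 groups. The 3 tests share the month 2 libraries. With edgeR no gene of 20518 was called against day 1, month 4 or month 6 (0% each). An unadjusted p under 0.05 by edgeR was found for 1132, 1209 and 1223 genes. Chance alone would put a share of about 0.05 of all genes tested there. DESeq2 called 57, 41 and 58 genes. The smallest adjusted p against day 1 belonged to KL, klotho, a coreceptor of fibroblast growth factor: its mean was 3.80 CPM in the ovary and 16.3 CPM in the uterus at month 2, and 4.71 and 1.96 CPM at day 1 (difference of log2 fold changes -3.40 ± 0.62 SE, adjusted p = 0.083 by edgeR). Earlier results of these data set ovary day 1 library 3 and the month 4 libraries of individual 5 apart from their organs, which was not tested here. Without these libraries KL had an adjusted p of 0.0178 by edgeR, and 1 further gene was called. Against month 6 the smallest adjusted p, 0.145, was that of MMP1, interstitial collagenase, whose uterine mean was 0.0141 CPM at month 2 and 107.7 CPM at month 6. For the 24 reference genes edgeR called no difference between month 2 and another age. Their SE ran from 0.61 for GDF9 against day 1 to 4.02 for CYP17A1 against month 4. STAR differed by -6.98 ± 1.86 SE against month 4 and was not called (adjusted p = 0.45 by edgeR). A gene without a call may therefore still differ between ages.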

How the data were processed

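Total RNA of ovarian and uterine tissue was sequenced, and the deposited table holds whole-number counts per gene for 40 libraries. Tools named in the submitters' processing notes are RSEM 1.3.0, StringTie 1.3.3b, HISAT2 and fastp 0.23.1, without their roles. Neither a genome build nor a strand setting is stated, and how reads with several matches were counted is unknown. Genes with close copies or overlapping neighbours are therefore uncertain. Gene numbers of 28910 genes were matched to symbols of the RefSeq ARS1.2 table, used for names only, and the other 1139 are loci assembled from the reads. Library totals of 43620432 to 60262536 counts set the precision, and counting intervals and limits cover counting error only.

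The 10 month 2 libraries were fitted alone with edgeR 4.0.16 in R 4.3.3, by TMM scaling, filterByExpr and the robust quasi-likelihood test, which gave log2 fold changes and Benjamini-Hochberg adjusted p-values over 18331 genes. Differences between ages were tested in a fit of all 40 libraries in 8 groups. The scripts were tested on simulated data. Where every uterus library was at 0, the fold is a bound against 3 counts over the group. DESeq2 1.42.0, limma 3.58.1 (voom), other scalings and filters, other sets of libraries, the replicate block and leaving out each library in turn were the alternatives.

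The genes named are 24 reference genes, the 10 with the largest fold and the 5 with the highest mean in each direction among called genes with no overlap, up to 4 called members of each list by fold, and 2 LOC genes a direction; 1 gene that the rule names is not reported here. Groups were taken from the labels. The lists and reference genes were chosen with earlier results of these data known. Nothing says that the libraries of a group come from separate goats beyond the individual number, so p-values measure the spread between these libraries. No sequence or genome was used.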

Additional observations from a re-analysis of the deposited data

Results flagged for a closer look

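Among 221 pairs of a named gene and an organ, 19 had 1 library far from the other 4, by a gap of more than 0.71 of the group's range on the log2(CPM + 1) scale. Chance alone marks about 1 group in 20. Of the 19, 8 fell in ovary library 2, 4 in uterus library 1 and 3 in ovary library 4.

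Ovary library 2 was the high one for epithelial and gland genes: EPCAM at 73.48 CPM (3.917 to 6.938 in the other ovaries), CLDN7 at 10.27 CPM (0.2286 to 0.7965), ELF3 at 3.752 CPM (1.029 to 1.51), FOXA2 at 2.579 CPM (0 to 0.362) and WFDC2 at 2.601 CPM (0.204 to 0.3953). It was also high for IGF1 at 300 CPM (66.7 to 89.72), ERBB3 at 23.11 CPM (6.44 to 9.407) and PLVAP at 1.236 CPM (0.1258 to 0.2667). Among the ovaries the same library had the highest summed level of ciliated and oviduct genes, 707.8 CPM, and of urothelial genes, 53.74 CPM. The urothelial sum was 67.72 to 112 CPM in the uterus. The part of other tissue in these values was not tested.

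Ovary library 4 was the high one for the posterior HOX genes HOXA10 at 10.14 CPM (0.04263 to 1.061), HOXA11 at 3.106 CPM (0 to 0.2449) and HOXD11 at 1.715 CPM (0 to 0.2821). Its EPCAM, at 6.44 CPM, lay within the range of ovary libraries 1, 3 and 5. OXTR was low in ovary library 5, at 0.8804 CPM against 2.61 to 2.899 in the others.

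Uterus library 1 was high for CP at 1160 CPM (408.8 to 462.6 in the other uteri) and low for CHRM2 at 45.56 CPM (93.65 to 105.8), GREB1 at 2.901 CPM (22.59 to 42.1) and PLIN4 at 3.132 CPM (12.75 to 19.74). SRGN was low in uterus library 4 at 49.65 CPM (73.04 to 79.78). CD2 was high in uterus library 5 at 5.983 CPM (2.104 to 2.609), and BNC1 in uterus library 2 at 1.8 CPM (0.09958 to 0.3364).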

How the results depend on the processing

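The counts of 2101 genes higher and 1686 lower in the ovary stayed within 1.5 times under every alternative run: 1702 to 2603 higher and 1333 to 1840 lower over other scalings, filters, tools and sets of libraries, and 1911 to 2304 higher and 1486 to 1894 lower when 1 library was left out. Of the genes called, 73.8% were also called in the fit of all 40 libraries and 99% with DESeq2. Of 137 named genes called, 108 were called in every alternative, 4 more (DAZL, SYCP3, NEFH and STC2) in each that tested them, and none changed sign; 22 lost the call with all 40 libraries, the cause of which was not tested. Same-numbered ovary and uterus libraries deviated together with correlations of 0.0144 to 0.31, and 2 of 5 ovaries matched their own number best. Not every number had a correlation above 0.1, a level whose power to detect shared goats was not tested. Whether a number is 1 goat remains unknown. With the number as a replicate block, 2074 genes were higher and 1646 lower, 92.5% of the calls were shared, MSLN (-2.03, adjusted p = 0.102 by edgeR) and TXNIP (-0.96) lost their calls, 6 gland genes were higher in place of 3, and no difference between ages was called. For the difference between ages edgeR called 0 and limma-voom 0. DESeq2 called 57 genes against day 1, 41 against month 4 and 58 against month 6. The edgeR fit without the 3 libraries that earlier results set apart called 2 against day 1. Leaving out 1 library gave 0 to 2, 0 to 0 and 0 to 1 calls. The cause of these differences was not tested. Genes of a few CPM rest on few counts, which limits folds of genes near 0 in one organ.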
